A study of Mus musculus with 2 samples.

Results

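The facilitative glucose and lactate transporters of mouse embryonic stem (ES) cells labelled as Ago1 knockout were examined as a set of 8 genes among 55421 in the count table. The set was chosen by symbol, with no threshold on expression. It held 6 glucose transporter (GLUT) genes, Slc2a1, Slc2a2, Slc2a3, Slc2a4, Slc2a6 and Slc2a8, and 2 monocarboxylate transporter (MCT) genes, Slc16a1 and Slc16a3. All 8 Ensembl identifiers were found in GENCODE release M21. Polyadenylated RNA had been sequenced in 2 libraries of 1 group, KO2 and KO1, both from E14 cells with an Ago1 knockout, of 129/Ola background, cultured on gelatin with serum and leukaemia inhibitory factor. E14 is an ES cell line derived from the blastocyst. The labels say neither how the knockout was made nor whether the libraries are separate clones or cultures, and their spread may therefore be technical. Without a control library, the values describe the knockout cells and how far their duplicates differed.

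GLUT proteins carry glucose down its gradient across the plasma membrane, and glycolysis then breaks it down to pyruvate. Cells that run glycolysis fast reduce much of that pyruvate to lactate, which leaves with a proton through MCT proteins. Pluripotent cells are known for high glycolytic flux. The isoforms divide by tissue and affinity: GLUT1 serves most proliferating cells, GLUT3 is a high-affinity carrier best known from neurons, GLUT2 is a low-affinity carrier of liver and beta cells, and GLUT4 is the insulin-responsive carrier of muscle and fat. GLUT6 and GLUT8 lie mainly on internal membranes. MCT1 carries lactate in either direction in many tissues, and MCT4 is the lactate exporter of highly glycolytic cells.

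The libraries held 54408708 counts in KO2 and 57048330 in KO1. At 1 count per 1000000 (CPM) or more in both libraries, 13347 genes were detected. Ago1, the targeted gene, had 452 counts in KO2 and 1497 in KO1, or 8.27 and 26.4 CPM. The libraries thus differed in the targeted gene itself, and why was not tested. Counts per gene do not show which part of the transcript the reads came from. All 7 ES cell markers were detected, from Sox2 at 309 ± 16.9 CPM to Dppa5a at 1595 ± 119 CPM (SD, n = 2). Markers of primitive endoderm were detected for 6 of 6 genes and of trophectoderm for 4 of 6, with summed levels of 105 CPM in KO2 and 101 in KO1, and of 75.8 CPM in KO2 and 58.9 in KO1, beside 5615 and 5429 CPM for the ES cell markers. Of 6 fibroblast markers Thy1 was detected, and Postn and Lum were at 0. In such bulk RNA, fewer cells of a type and less RNA per cell cannot be told apart.

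Of the 8 transporters, 5 were detected, beside 24.1% of all genes. These were Slc2a3, Slc2a1, Slc16a1, Slc16a3 and Slc2a8, and together the 8 held 0.198% of the counts in KO2 and 0.180% in KO1. Levels between genes are given as CPM per kb of exon (RPKM), with the length taken over all annotated exons of a gene. In descending order the levels ran Slc2a3, Slc2a1, Slc16a1, Slc16a3, Slc2a8, Slc2a4 and Slc2a6, and Slc2a2 had no count. No neighbours in that order overlapped across the libraries, and the order was the same with the length of the longest coding transcript. The detected genes had a median of 5.47 RPKM.

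**Figure D1:**
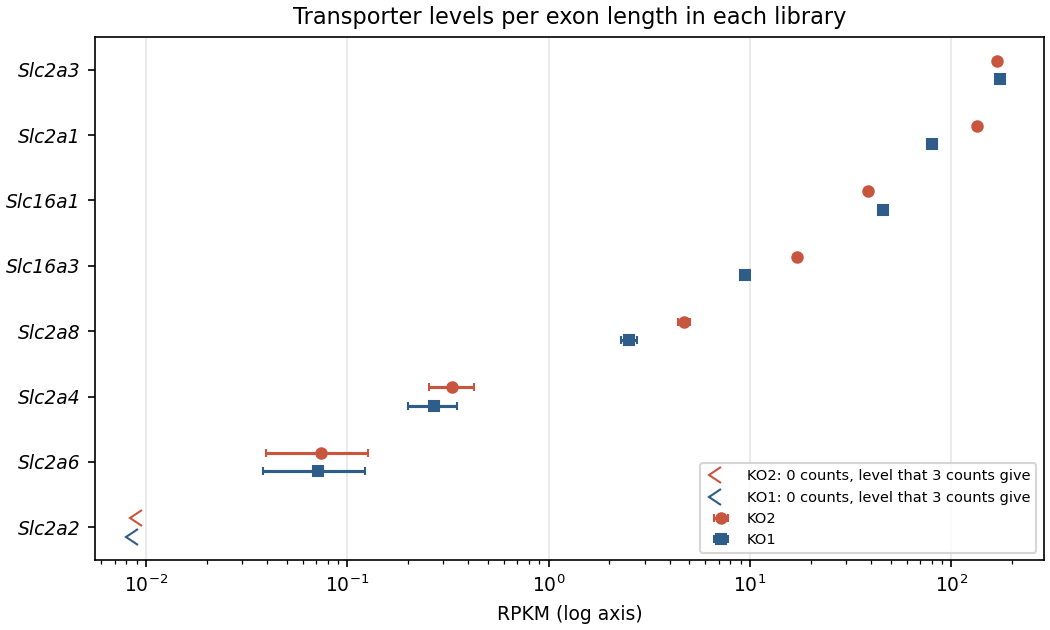
Level of each transporter in RPKM on a log scale, with a point for each library and bars for exact Poisson 95% intervals. Slc2a3 and Slc2a1 lie between 79.9 and 174.7 RPKM, Slc16a1 and Slc16a3 between 9.46 and 46.1, and Slc2a8 between 2.50 and 4.69. Slc2a2, with 0 counts, is drawn at the level that 3 counts would give.

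Slc2a3, which encodes GLUT3, was the most abundant transporter. Its gene (ENSMUSG00000003153) spans bases 122727809 to 122801640 of chromosome 6 in GRCm38, on the minus strand. It had 66635 counts in KO2 and 71906 in KO1, or 168.3 and 174.7 RPKM, with a mean of 171.5 ± 4.49 RPKM (SD, n = 2). It ranked 220 among detected genes, above 98.4% of them. The libraries lay close together, with a log2 ratio of KO2 over KO1 of -0.053 (95% interval -0.069 to -0.038). The level depends on the length used, because the annotated exons sum to 7245 bases and the longest coding transcript has 3959. With the length of that transcript it was 313.9 ± 8.22 RPKM. The nearest protein-coding gene on 1 side was the pluripotency factor Nanog, 13.2 kb away, at 276 ± 18.1 RPKM, and on the other side Foxj2, 18.3 kb away, at 1.20 ± 0.116 RPKM.

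Slc2a1, which encodes GLUT1, was next. Its gene (ENSMUSG00000028645) spans bases 119108711 to 119137983 of chromosome 4, on the plus strand. It had 25646 counts in KO2 and 15907 in KO1, or 133.9 and 79.9 RPKM, with a mean of 106.9 ± 38.2 RPKM (SD, n = 2). It ranked 401 among detected genes. KO2 was the higher library, by 1.68-fold (log2 0.75, 95% interval 0.72 to 0.77). The antisense gene Gm12868 covers 2.99% of the Slc2a1 exons and had 1 count in KO2 and 0 in KO1. The other 7 transporters had no exon base under another gene, and none of their 50-base stretches occurred in transcripts of another gene.

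Slc2a8, which encodes GLUT8, was detected at a low level. It is encoded (ENSMUSG00000026791) at bases 32972990 to 32982083 of chromosome 2, on the minus strand. It had 822 counts in KO2 and 456 in KO1, or 4.69 and 2.50 RPKM, with a mean of 3.59 ± 1.55 RPKM (SD, n = 2), and 39.4% of detected genes lay lower. KO2 was 1.87-fold higher (log2 0.91, 95% interval 0.74 to 1.07). With the length of the longest coding transcript, the mean was 5.47 ± 2.35 RPKM.

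The other 3 GLUT genes had few reads or none. Slc2a4, which encodes GLUT4 (ENSMUSG00000018566, chromosome 11 from 69942539 to 69948188, minus strand), had 63 counts in KO2 and 53 in KO1, or 1.15 CPM (exact Poisson 95% interval 0.886 to 1.48) and 0.933 CPM (0.699 to 1.22). Only KO2 reached 1 CPM, and the intervals of the libraries overlapped. Slc2a6, which encodes GLUT6 (ENSMUSG00000036067, chromosome 2 from 27021363 to 27027998, minus strand), had 13 counts in each library, or 0.238 CPM in KO2 and 0.229 in KO1. Slc2a2, which encodes GLUT2 (ENSMUSG00000027690, chromosome 3 from 28697903 to 28731359, plus strand), had 0 counts in both. For a count of 0 the exact Poisson 95% interval reached up to 0.0675 CPM in KO2 and 0.0649 in KO1. Such intervals and limits hold counting error alone, because PCR copies are not independent molecules.

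Markers of the tissues in which GLUT4 and GLUT2 are best known were low. Of 11 skeletal muscle markers 0 were detected in both libraries, and their summed counts were 106 in KO2 and 704 in KO1. Several passed 1 CPM in KO1 alone, the highest being Acta1 at 2.08 CPM in KO1 and 0.256 in KO2. Of those 11, 7 had the 50 summed counts needed to compare. All 7 were past 2-fold lower in KO2, a call made for 0.0768% of all genes. Each of the 7 had more than 50 counts in KO1 alone and fewer in KO2. The filter thus favoured markers high in KO1, and the 2 shares are not comparable. Below the filter, Pvalb had 0 counts in KO2 and 48 in KO1, Myh1 0 and 9, Myod1 3 and 4, and Myog 10 and 7. Slc2a4 had 63 counts in KO2 and 53 in KO1, a log2 ratio of 0.30 with a counting interval of -0.24 to 0.86. That interval includes 0, so it gives Slc2a4 no direction. It lay above the intervals of the 7 called markers, the highest of which ended at -1.22, for Tnnc2. It overlapped the intervals of Myod1 (-3.13 to 2.20) and Myog (-0.97 to 2.20). Which cells the Slc2a4 reads came from was not tested. Of 6 adipocyte markers 0 were detected, with 29 and 22 summed counts in KO2 and KO1, and Fabp4 and Lep were at 0. Of 7 markers of hepatocytes and visceral endoderm, Hnf4a and Apob were detected, with 1170 summed counts in KO2 and 1229 in KO1, while Afp and Serpina1a were at 0. Of 5 beta cell markers Mafa alone was detected, with 175 summed counts in KO2 and 128 in KO1 over the list, and Ins1, Ins2 and Iapp were at 0.

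Slc16a1, which encodes MCT1, was the more abundant lactate carrier in both libraries. Its gene (ENSMUSG00000032902) spans bases 104638668 to 104658462 of chromosome 3, on the plus strand. It had 9333 counts in KO2 and 11588 in KO1, or 38.6 and 46.1 RPKM, with a mean of 42.3 ± 5.30 RPKM (SD, n = 2). KO2 was the lower library, with a log2 ratio of -0.26 (95% interval -0.30 to -0.22).

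Slc16a3, which encodes MCT4, spans bases 120948480 to 120960868 of chromosome 11, on the plus strand (ENSMUSG00000025161). It had 4973 counts in KO2 and 2858 in KO1, or 17.1 and 9.46 RPKM, with a mean of 13.3 ± 5.41 RPKM (SD, n = 2). KO2 was 1.81-fold higher (log2 0.86, 95% interval 0.79 to 0.92), the opposite direction to Slc16a1. The neighbouring casein kinase gene Csnk1d, 0.881 kb away, had a level of 21.4 ± 3.35 RPKM and a log2 ratio of 0.32.

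Slc2a3 and Slc2a1 made up nearly all of the summed GLUT level. Slc2a3 held 54.8% of the summed RPKM of the 6 GLUT genes in KO2 and 67.9% in KO1 (mean 61.3% ± 9.26, SD, n = 2). Slc2a1 held 43.6% in KO2 and 31.0% in KO1, and Slc2a8 held 1.53% and 0.972%. The share of Slc2a3 in the counts themselves was 71.5% in KO2 (Clopper-Pearson 95% interval 71.2 to 71.8) and 81.4% in KO1 (81.1 to 81.7). The intervals did not overlap, but they hold counting error alone. Slc2a3 was 1.26 times Slc2a1 in KO2 and 2.19 times in KO1, and with coding transcript lengths 2.14 times and 3.72 times. Slc2a3 was thus the higher of the pair in both libraries at either length.

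The MCT pair divided unequally as well. Slc16a1 held 69.3% of the pair's summed RPKM in KO2 and 83.0% in KO1 (mean 76.1% ± 9.68, SD, n = 2), and Slc16a3 the rest. The pair's sum was nearly the same in both libraries, at 55.7 RPKM in KO2 and 55.5 in KO1, while the GLUT sum was 307 RPKM in KO2 and 257 in KO1. Slc16a1 was 2.25 times Slc16a3 in KO2 and 4.87 times in KO1, and with coding transcript lengths 1.84 times and 3.97 times.

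**Figure D2:**
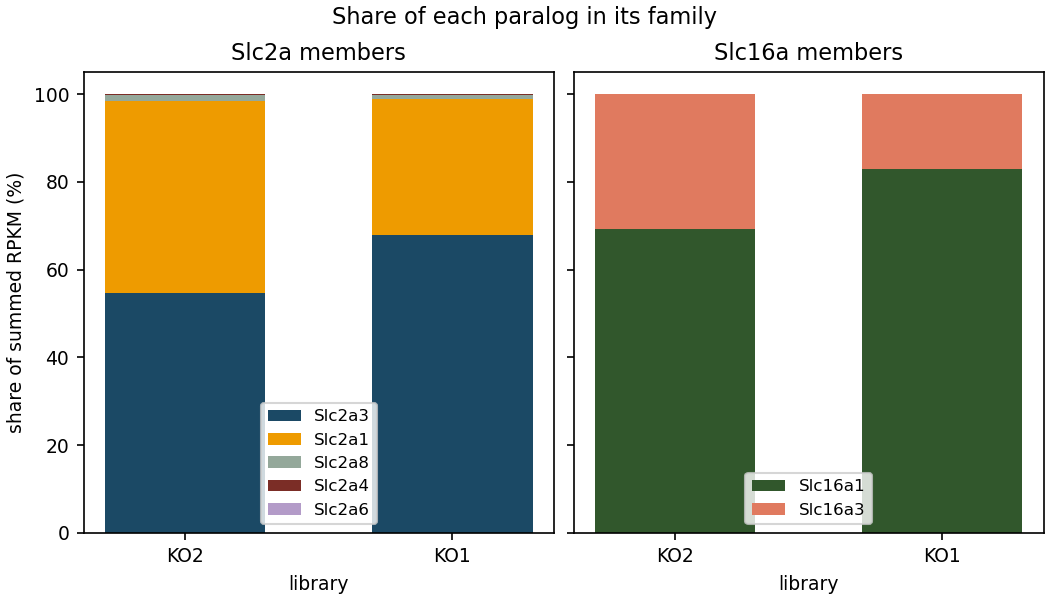
Share of each gene in the summed RPKM of the 6 GLUT genes and of the MCT pair, as stacked bars for KO2 and KO1. Slc2a3 and Slc16a1 take the larger share in both libraries, and Slc2a1 and Slc16a3 take a larger share in KO2 than in KO1.

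The ratio of KO2 over KO1 was compared gene by gene, with a gene called when its whole 95% interval was past a set fold and both libraries together gave at least 50 counts. This compares 2 libraries of 1 group, so it is a rule of size with no p-value. Of the 6 transporters with enough counts, 0 were past 2-fold, beside 1.06% of 15619 genes, made up of 0.98% higher in KO2 and 0.0768% lower. Past 1.5-fold, Slc16a3, Slc2a1 and Slc2a8 were higher in KO2 and 0 were lower, beside 6.6% of genes called, 6.4% higher and 0.205% lower. The median log2 ratio of the 6 transporters was 0.52, beside 0.0096 over all genes.

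**Figure D3:**
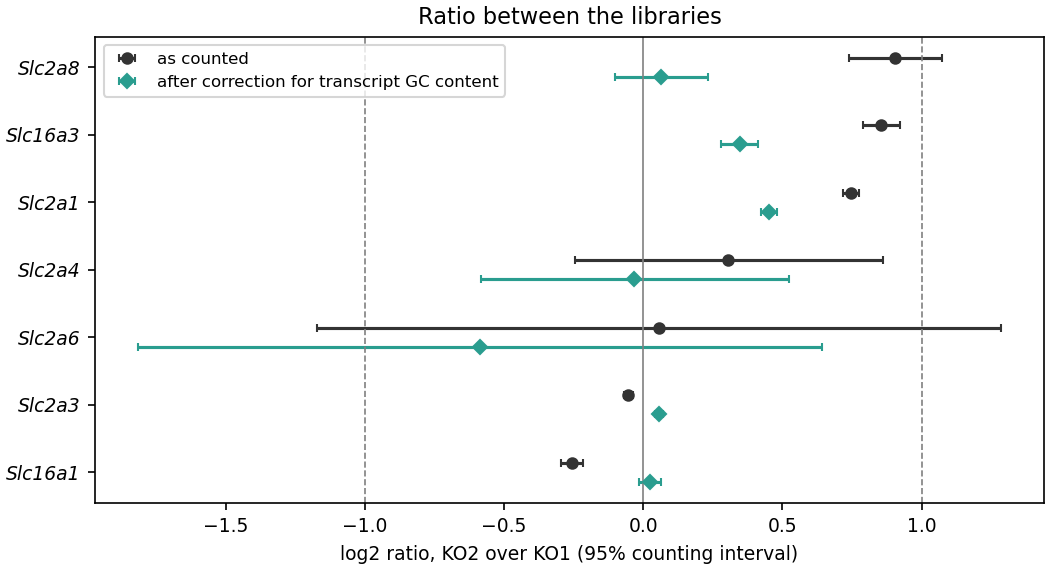
Log2 ratio of KO2 over KO1 for each transporter with its 95% interval, before and after correction for transcript GC content, with dashed lines at 2-fold and Slc2a2 left out for its 0 counts. Before correction Slc2a1, Slc2a8 and Slc16a3 lie between 0.75 and 0.91, and after it they lie at 0.45, 0.065 and 0.35.

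Among the 5 detected transporters, the ratio was higher the higher the GC content of the transcript. Slc2a4, also compared but not detected, was out of that order at 54.6% GC and 0.30, with a wide interval (-0.24 to 0.86). Across 15603 genes the ratio had a Spearman correlation of 0.81 with the GC content of the longest transcript, over genes that share the same pair of libraries. Slc16a1 and Slc2a3 had 42.9% and 47.4% GC, while Slc2a1, Slc16a3 and Slc2a8 had 54.02%, 56.6% and 60.8%, beside a median of 49.6%. After a loess correction for GC content, Slc2a8 had a log2 ratio of 0.065 (95% interval -0.10 to 0.23) and Slc16a1 0.023 (-0.017 to 0.062), so both intervals included 0. Slc2a3 changed sign, to 0.056 (0.041 to 0.071). Neither reading held for Slc16a1 and Slc2a3 with the GC content of the longest coding transcript, an alternative chosen after seeing the data. Slc16a1 was then at 0.043 (0.0030 to 0.082), which excludes 0, and Slc2a3 at -0.020 (-0.035 to -0.0043). All these intervals hold counting error alone, without the error of the fit or the spread between libraries. That spread, as a coefficient of variation, was 0.0926 after correction. Ratios as small as those of Slc16a1 and Slc2a3 therefore cannot be given a direction. Slc2a1 kept a ratio of 0.45 (0.42 to 0.48) and Slc16a3 of 0.35 (0.28 to 0.41), above 95.4% and 91.9% of genes.

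After the correction 0 of the 6 transporters were past 1.5-fold, beside 0.897% of genes (0.615% higher and 0.282% lower), and 0 past 2-fold, beside 0.269% (0.167% higher and 0.103% lower). The shift within each pair shrank but kept its direction. Slc2a1 over Slc2a3 was higher in KO2 by a log2 value of 0.80 (95% interval 0.77 to 0.83) before correction and 0.40 (0.36 to 0.43) after. Slc16a3 over Slc16a1 was higher in KO2 by 1.11 (1.03 to 1.19) before and 0.32 (0.25 to 0.40) after. These intervals also hold counting error alone, so they do not set either shift apart from the spread between libraries. Whether library preparation, the cells or both gave the remaining difference was not tested.

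**Figure D4:**
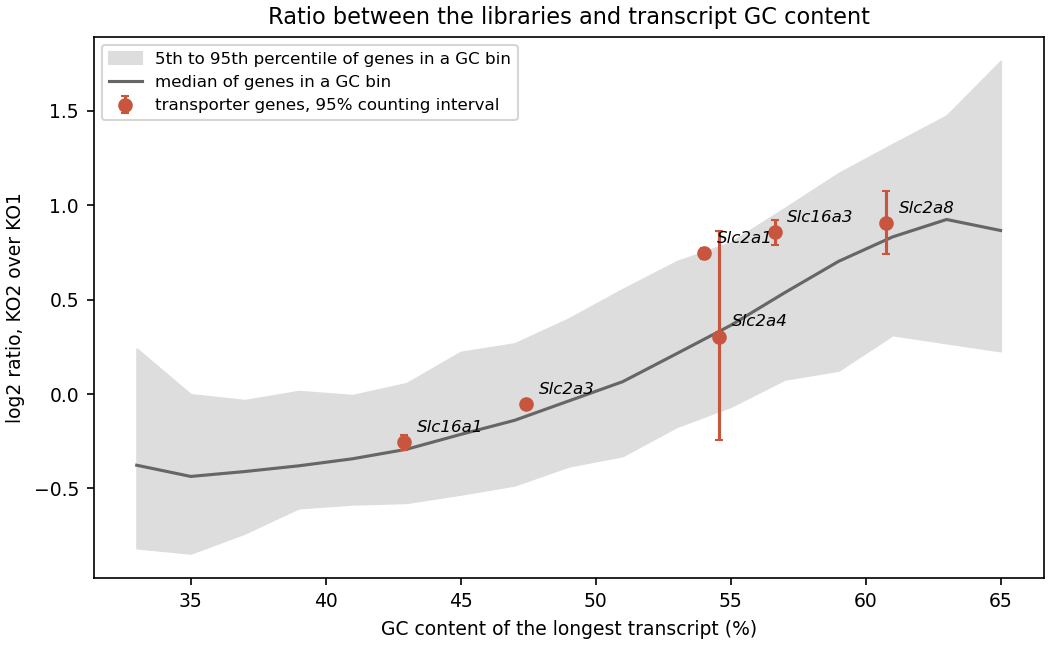
Log2 ratio of KO2 over KO1 against GC content of the longest transcript, with the median and the range from the 5th to the 95th percentile of all genes in bins of GC content and the transporters with at least 50 summed counts as labelled points with 95% intervals. The median is higher in GC-rich bins, and Slc2a8 and Slc16a1 lie near it. Slc2a1 and Slc16a3 lie above it but inside the range of their GC bins, with 95th percentiles of 0.80 and 0.98.

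Promoter sequences are shown for the 3 well-expressed carriers that RefSeq windows on GRCm38.p6 covered, and for Slc2a2 as the gene with no count. Of the 8 genes 6 matched a window, and Slc2a3 and Slc2a4 did not. The search covered the 250 bases before each RefSeq start, and the part of it free of annotated exons is printed, extended for Slc2a1 by 3 exonic bases to complete a match. For Slc16a3 the RefSeq start lies inside the GENCODE gene, so its window is intragenic, downstream of the gene's first annotated base, and the printed part lies between annotated exons. Matches nearer the starts of Slc2a1 and Slc16a3 are therefore counted but not printed. Capitals mark matches to GGGCGG (the GC box bound by Sp1), ACGTG (the core of the hypoxia response element), CACGTG (the E-box of Myc and of MondoA with Mlx) and CCAAT, each sought on both strands. The E-box contains the hypoxia core on both strands. They are chr4:119108495-119108713 (plus strand) for Slc2a1, chr3:104638414-104638663 (plus) for Slc16a1, chr11:120948817-120949052 (plus) for Slc16a3 and chr3:28697653-28697902 (plus) for Slc2a2.
Slc2a1: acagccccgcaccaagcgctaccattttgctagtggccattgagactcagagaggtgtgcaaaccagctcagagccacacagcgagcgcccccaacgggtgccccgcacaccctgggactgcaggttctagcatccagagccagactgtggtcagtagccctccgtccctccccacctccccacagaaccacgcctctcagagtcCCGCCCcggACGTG
Slc16a1: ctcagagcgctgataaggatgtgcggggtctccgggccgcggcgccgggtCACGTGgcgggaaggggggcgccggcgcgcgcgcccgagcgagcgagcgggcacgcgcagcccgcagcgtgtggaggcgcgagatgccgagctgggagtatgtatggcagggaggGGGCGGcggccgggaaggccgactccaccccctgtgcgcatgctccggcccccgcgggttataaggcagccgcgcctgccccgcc
Slc16a3: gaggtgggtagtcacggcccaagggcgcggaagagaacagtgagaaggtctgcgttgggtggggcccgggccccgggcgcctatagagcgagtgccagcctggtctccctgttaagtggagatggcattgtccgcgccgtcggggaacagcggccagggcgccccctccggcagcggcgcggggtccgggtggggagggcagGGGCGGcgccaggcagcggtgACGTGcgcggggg
Slc2a2: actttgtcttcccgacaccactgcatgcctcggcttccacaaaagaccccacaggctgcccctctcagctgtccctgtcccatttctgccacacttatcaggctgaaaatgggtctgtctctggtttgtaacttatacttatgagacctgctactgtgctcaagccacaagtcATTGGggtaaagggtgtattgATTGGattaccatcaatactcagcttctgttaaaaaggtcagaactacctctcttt
ACGTG was found in the windows of Slc2a1 and Slc16a1 and in the intragenic window of Slc16a3, beside 16.6% of 32851 windows, and CACGTG in that of Slc16a1 alone, beside 6.02%. GGGCGG was found in those of Slc2a1, Slc2a6, Slc16a1 and Slc16a3, beside 32.7%. CCAAT was found in those of Slc2a2, Slc2a6 and Slc2a8, beside 33.8%. The windows of Slc16a1, Slc16a3 and Slc2a1 had 76.4%, 73.6% and 66.4% GC, and that of Slc2a2 47.2%, beside a median of 52.4%. A match describes letters in the window and says nothing of binding.

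Because Argonaute proteins act through microRNAs, the stretch after the stop codon of each transporter's longest coding transcript was searched for matches to seeds of microRNAs known from ES cells and their descendants. MicroRNA levels were not measured here. The mature sequences, from RefSeq with GRCm38.p6, are given with the seed, bases 2 to 8, in capitals, for the 4 seeds that matched. The miR-294 and miR-302b sequences share 1 seed, and that of miR-17 is the same run moved by 1 base.
mmu-miR-294-3p: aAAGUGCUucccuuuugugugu
mmu-miR-302b-3p: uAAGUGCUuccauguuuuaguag
mmu-miR-17-5p: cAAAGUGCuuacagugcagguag
mmu-miR-16-5p: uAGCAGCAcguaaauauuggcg
mmu-let-7a-5p: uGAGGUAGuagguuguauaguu
Matched stretches in GENCODE transcripts follow for the genes with reads, with the match in capitals. The 5 matches in Slc2a2, which had 0 counts, are not printed.
Slc2a4, miR-294 and miR-302b: ctttcctctacAGCACTTtagccctctctt
Slc2a3, let-7a: gttggaaggctCTACCTCactacagctagg
Slc2a3, miR-16: ctgcttctgagTGCTGCTattctcacccca
Slc2a1, miR-16: gaaagcaagacTGCTGCTcagatctattca
Slc16a3, miR-16: tcctggaagaaTGCTGCTcagatgcacggg
A match to the shared seed of miR-294 and miR-302b, the family most abundant in ES cells, was found in Slc2a4 alone, 59 bases after the stop codon, beside 17.6% of 12060 detected genes. It overlaps a match to the miR-17 seed, found in 14.7% of genes. A match to let-7a, which rises as ES cells differentiate, was found in Slc2a3 and Slc2a2, beside 10.7%. Matches to miR-16 were found in Slc2a1, Slc2a2, Slc2a3 and Slc16a3, beside 24.8%. The stretches searched in these 4 had 1537, 3883, 2122 and 2736 bases, beside a median of 1166 for detected genes. The shares given are not matched for length, and they cover detected genes, which Slc2a2 and Slc2a4 are not. No match to any of the 7 seeds searched was found after the stop codon of Slc16a1, Slc2a6 or Slc2a8. With no control library, whether these transcripts respond to the knockout was not tested.

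The other genes of glucose and lactate handling placed the transporters in their pathway. Of the 6 other Slc2a genes, 2 were detected, the hexose carrier Slc2a7 at 1.41 ± 0.386 RPKM and the fructose carrier Slc2a5 at 1.21 ± 0.149 RPKM (SD, n = 2 here and in the values that follow). The lowest with a count was Slc2a13, a myo-inositol carrier, at 1 count in KO2 and 0 in KO1. Of a list of 8 holding sodium-coupled glucose carriers and the SWEET gene, 4 were detected, led by Slc5a11 at 8.68 ± 1.04 RPKM, a myo-inositol and glucose carrier, and the SWEET gene Slc50a1 at 4.75 ± 0.763 RPKM. Slc5a9 was the lowest, at 3 counts in KO2 and 1 in KO1. None of these reached the level of Slc2a1 or Slc2a3.

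Of the 12 other Slc16a genes, 4 were detected, led by Slc16a6 at 3.92 ± 0.00693 RPKM and Slc16a13 at 1.60 ± 0.176 RPKM. The lowest was Slc16a8, a lactate carrier of the retinal pigment epithelium, at 1 count in KO2 and 0 in KO1. Both sodium-coupled lactate carriers were below detection, Slc5a8 at 8 counts in KO2 and 10 in KO1 and Slc5a12 at 1 and 0. The glycoproteins that bring MCT proteins to the cell surface were both detected. Bsg, the partner of MCT1 and MCT4, had 149.7 RPKM in KO2 and 122.4 in KO1, and Emb had 19.3 and 23.3.

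Enzymes on either side of the transporters ranged widely in level. Of 8 genes of glucose phosphorylation and release 4 were detected, led by hexokinase 2, Hk2, at 64.3 ± 5.08 RPKM, and G6pc3, a glucose-6-phosphatase, at 2.76 ± 0.835 RPKM. Hk3 had 2 counts in KO2 and 4 in KO1, and G6pc, the liver glucose-6-phosphatase, had 0 in both. All 10 lactate and pyruvate genes were detected. Ldha, the lactate dehydrogenase subunit that favours lactate, had 596 RPKM in KO2 and 526 in KO1, and Pdk1, a kinase that restrains pyruvate dehydrogenase, had 28.2 and 32.5. Ldhd was the lowest of the list, at 0.562 ± 0.0894 RPKM.

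Regulators were detected for 8 of 8 genes. Txnip, an arrestin that drives GLUT1 off the cell surface, had 80.8 RPKM in both libraries. Hif1a, the hypoxia-inducible factor that acts on Slc2a1 and Slc16a3, had 29.2 RPKM in KO2 and 38.3 in KO1. Mlxipl, the glucose-responsive factor ChREBP, was the lowest, at 1.45 ± 0.416 RPKM. All 10 GLUT traffic genes were detected, led by Gipc1, which binds the GLUT1 tail, at 32.6 RPKM in KO2 and 17.9 in KO1, and Vamp3, a vesicle fusion protein, at 22.4 and 25.5. Tbc1d4, the insulin-regulated brake on GLUT4 vesicles, was the lowest, at 0.670 ± 0.0377 RPKM.

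Among genes of these 9 lists with at least 50 summed counts, none was past 2-fold between the libraries, before or after GC correction. Over all genes compared the shares were 1.06% before and 0.269% after, so few calls could arise in lists of this size. Genes below that count, among them both sodium-coupled lactate carriers, could not be called. The medians of the lists with genes compared lay between 0.0045 and 0.49 in log2 ratio, beside 0.52 for the transporters and 0.0096 for all genes. After GC correction they lay between -0.18 and 0.09, beside 0.061 for the transporters and -0.0080 for all genes.

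**Figure D5:**
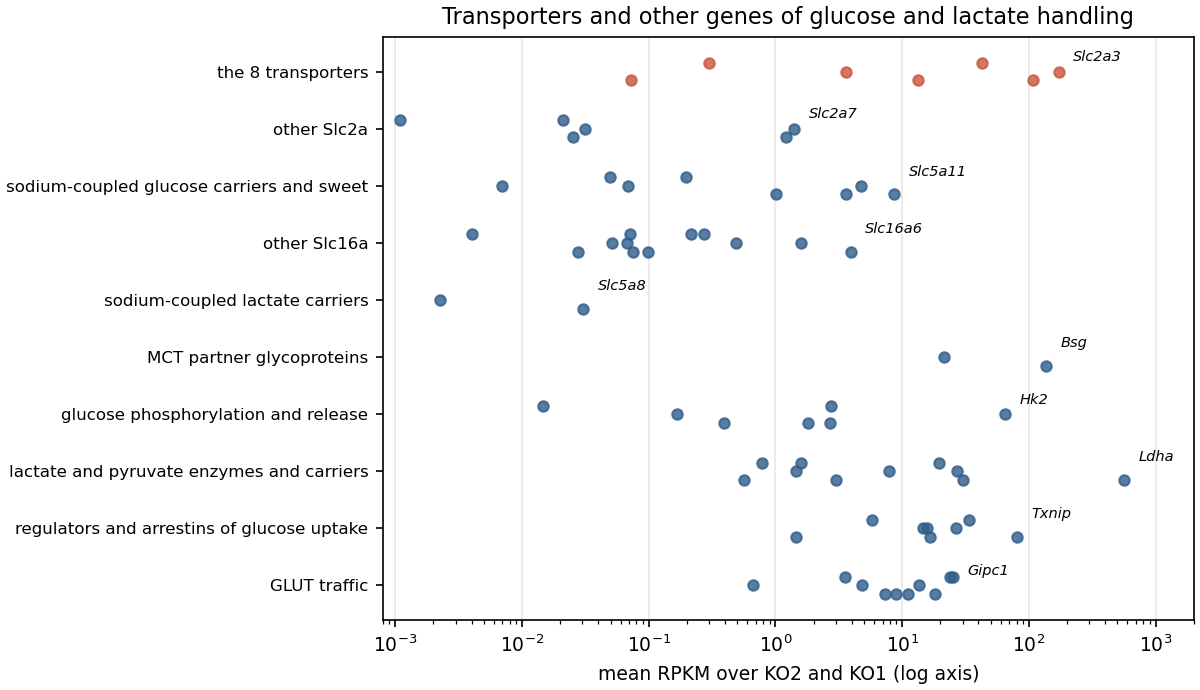
Mean level in RPKM, on a log scale, of each gene of the pathway lists and of the transporters, grouped by list, with Slc2a2 and G6pc left out at 0 counts. Ldha, at 561 RPKM, is the highest gene shown, followed by Slc2a3 at 171.5, Bsg at 136 and Slc2a1 at 106.9.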

How the data were processed

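The authors deposited 1 table of raw read counts per Ensembl gene for 2 polyadenylated RNA libraries of Ago1 knockout ES cells, with no normalization. Per the submitters' processing notes the genome build was GRCm38, and per the labels the library protocol was reverse-stranded. Aligner, counter, strand setting of the counting and annotation: not given in the sources used here. Of 55421 identifiers, 55240 were in GENCODE release M21, and the other 181 held 0.00416% of the counts. Totals were 54408708 in KO2 and 57048330 in KO1. CPM used TMM factors of edgeR 4.0.16 in R 4.3.3 (1.00 for KO2 and 0.996 for KO1). RPKM divided CPM by summed exon length. Ratios of KO2 over KO1 had exact conditional binomial 95% intervals and a prior count of 0.5, and the GC correction was a loess fit with a span of 0.3. With 1 group no test between conditions was possible and no p-value is given. DESeq2 1.42.0 served as an alternative. Other steps used python 3.11.15, numpy 2.4.6, pandas 2.3.3, scipy 1.17.1 and matplotlib 3.10.9, and the ratio and dispersion steps were tested on simulated data. Of each list, the highest 2 genes per length, the lowest with a count and any past 2-fold were named, with the nearest protein-coding neighbours of the transporters; some neighbours are not described. Likeness of pattern was not ranked, since 2 libraries of 1 group give no pattern. The genes and lists were chosen with earlier results of these data known.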

Additional observations from a re-analysis of the deposited data

How the results depend on the processing

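No paired analysis was possible because the samples form 1 group. Library size without TMM, or DESeq2 size factors (which left the libraries unscaled), changed no level, share or count of detected genes beyond the spread between libraries. Without 1 library, 5 to 6 transporters were detected, Slc2a3 held 54.8% to 67.9% of the GLUT sum and Slc16a1 69.3% to 83.0% of the MCT sum. At a CPM of at least 0.5 there were 6 detected, and with any count 7. At 1.5-fold in place of 2-fold, 3 transporters were called in place of 0. The mean Slc2a3 share was 76.5% with no scaling to length and 72.5% with the length of the longest coding transcript, an alternative chosen after seeing the data, against 61.3%. The coefficient of variation between the libraries was 0.193, and 0.0926 with GC correction. The correction turned the log2 ratio of Slc2a3 to 0.056 and of Slc16a1 to 0.023. With GC content of the coding transcript, also chosen after seeing the data, Slc16a1 was at 0.043 (95% interval 0.0030 to 0.082) and Slc2a3 kept its sign at -0.020. DESeq2 scaling moved 3 log2 ratios beyond their counting intervals, to 0.69 for Slc2a1, -0.11 for Slc2a3 and -0.31 for Slc16a1, with no change of sign. A mean of 2 libraries is always within 1 SD of each, so leaving 1 out shows little. The 13 counts of Slc2a6 give a ratio interval of -1.17 to 1.28, too wide to place it.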
